A study of Rattus norvegicus with 2 samples.

Results

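The regulators of how many mitochondria a cell builds and of how mitochondria join and divide were examined as 10 genes taken by name, of 13706 protein-coding genes listed in either library. They are the biogenesis genes Ppargc1a, Ppargc1b, Esrra, Nrf1 and Tfam, the fusion genes Opa1, Mfn1 and Mfn2, and the fission genes Dnm1l and Fis1. All 10 had a row in both libraries and passed the filter, a mean level of 1 RPKM or more (RPKM, reads per kilobase of listed gene length per 1000000 reads), so no member was counted as 0. The samples were myocardium of spontaneously hypertensive rats, an inbred strain with high blood pressure and cardiac enlargement. Rats of the KXH group received Jiangya Kangxian formula, a herbal preparation, into the stomach at its high dose of 9.6 g/kg for 12 weeks, and rats of the water group received distilled water over the same 12 weeks. Both groups were therefore of the hypertensive strain, and no strain with normal blood pressure was analysed here. The blood pressure of these animals was not analysed here, and the labels give neither the age of the animals nor whether a library was made from 1 heart or from a pool. There was 1 library per group, with 14.1 M reads on protein-coding genes for KXH and 15.1 M for water (M, 1000000). With a lone library on each side, nothing below could be checked against the spread between animals, and treatments were not tested against each other. The words higher and lower compare these 2 libraries, and each 95% interval covers counting error only.

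Mitochondrial biogenesis in heart muscle is led by the coactivators PGC-1 alpha (Ppargc1a) and PGC-1 beta (Ppargc1b), which bind no DNA themselves and act through partners such as the nuclear receptor ERR alpha (Esrra) and nuclear respiratory factor 1 (Nrf1). These factors switch on nuclear genes of the respiratory chain and Tfam, whose product packs and transcribes mitochondrial DNA. Mitochondria join through the outer membrane GTPases mitofusin 1 and 2 (Mfn1, Mfn2) and the inner membrane GTPase Opa1, and divide when the cytosolic GTPase Drp1 (Dnm1l) is drawn to the outer membrane, where Fis1 is anchored. The heart depends on oxidative metabolism, and the study names mitochondrial dysfunction in cardiac remodelling as its interest.

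The DNA before the start site is shown for both coactivators, because they were the members that lay farthest above the water level, and for Tfam, a gene at the end of the same pathway that did not lie above it. Each line holds the 250 bases before the RefSeq start in the assembly GRCr8, read 5′ to 3′ on the strand of the gene, and capitals mark a match to a motif. The Ppargc1a stretch is chr14:63634058-63634307 on the plus strand, with a cyclic AMP response element (TGACGTCA) in capitals. The Ppargc1b stretch is chr18:57131467-57131716 on the minus strand and held no match, and the Tfam stretch is chr20:17355123-17355372 on the plus strand, with a GABP motif (CCGGAAG) in capitals.
Ppargc1a: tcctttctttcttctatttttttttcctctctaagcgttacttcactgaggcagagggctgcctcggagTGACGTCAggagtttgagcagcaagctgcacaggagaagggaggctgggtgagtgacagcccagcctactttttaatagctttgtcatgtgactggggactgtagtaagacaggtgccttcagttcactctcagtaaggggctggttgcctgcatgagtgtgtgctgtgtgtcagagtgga
Ppargc1b: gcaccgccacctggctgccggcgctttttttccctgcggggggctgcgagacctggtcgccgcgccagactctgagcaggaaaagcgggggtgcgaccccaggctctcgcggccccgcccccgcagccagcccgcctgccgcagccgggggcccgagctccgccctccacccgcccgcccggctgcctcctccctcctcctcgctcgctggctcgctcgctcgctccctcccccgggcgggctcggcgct
Tfam: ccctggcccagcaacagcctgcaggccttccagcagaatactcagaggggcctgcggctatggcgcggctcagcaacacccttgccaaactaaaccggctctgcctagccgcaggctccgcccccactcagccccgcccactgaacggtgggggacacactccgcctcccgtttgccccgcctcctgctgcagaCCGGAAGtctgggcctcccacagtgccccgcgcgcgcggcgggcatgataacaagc

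Sequences were found for 9 of the 10 members, with 2 start sites for Fis1. The motif TGACGTCA, on which CREB is known to act at this promoter in mice and humans, lay 181 bases before the Ppargc1a start and is held by 1.59% of all 33469 such stretches. The motif CCGGAAG lay 56 bases before the Tfam start and 32 bases before the Mfn1 start, against 7.27% of all stretches. Mfn1 also held the YY1 motif AAGATGG (4.62% of all), and Esrra and a start site of Fis1 held TGCGCA (6.14%), a short form of the motif of nuclear respiratory factor 1. No stretch of a member held the longer form CGCATGCG (1.47% of all), the ERR motif AAGGTCA (3.99%) or CACGTG (5.59%). Both strands were searched for all 7 motifs, none of these matches overlapped another, and a match describes only the letters. The stretches differed in base composition, with 78% G and C before Ppargc1b, 68.4% before Tfam and 50.4% before Ppargc1a, against a median of 51.2% over all stretches.

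The fusion genes were the most abundant of the 10 in both libraries, and Nrf1 was the least abundant. In the KXH library the level of Mfn2 was 166 RPKM, followed by Mfn1 at 138, Opa1 at 114 and Fis1 at 94.2 RPKM. In the water library the same 4 genes led in the same order, with Mfn2 at 178, Mfn1 at 148, Opa1 at 112 and Fis1 at 95.7 RPKM. The counting intervals of neighbours in this order did not overlap in either library. Only 4.16% of the 10467 genes past the filter had a higher level than Mfn2 with KXH, and 3.80% with water, so these transcripts belong to the abundant ones of this tissue.

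A second tier held Esrra, Ppargc1a and Dnm1l. In the KXH library they lay at 65.3, 63.6 and 63.4 RPKM with overlapping intervals, so their order is not resolved. In the water library Dnm1l (63.3 RPKM) and Esrra (61.4 RPKM) overlapped as well, and Ppargc1a lay lower at 56.9 RPKM (54.5 to 59.4), an interval that overlapped that of Esrra (58.7 to 64.1) but not that of Dnm1l (60.7 to 65.8). Below them lay Ppargc1b and Tfam, whose order was resolved in the water library only. Ppargc1b was at 32.8 RPKM (31.1 to 34.5) and Tfam at 31.0 RPKM (28.6 to 33.5) in the KXH library, where the intervals overlapped. In the water library Ppargc1b was at 26.2 RPKM (24.7 to 27.7) and Tfam at 32.9 RPKM (30.6 to 35.4), and the intervals were apart. Nrf1 stood at 10.01 RPKM with KXH and 10.7 with water, below the median gene, since 57.1% and 55.7% of genes had a higher level. Within each library the levels of the members spanned a range of 16.6 times for KXH and 16.7 times for water.

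**Figure D1:**
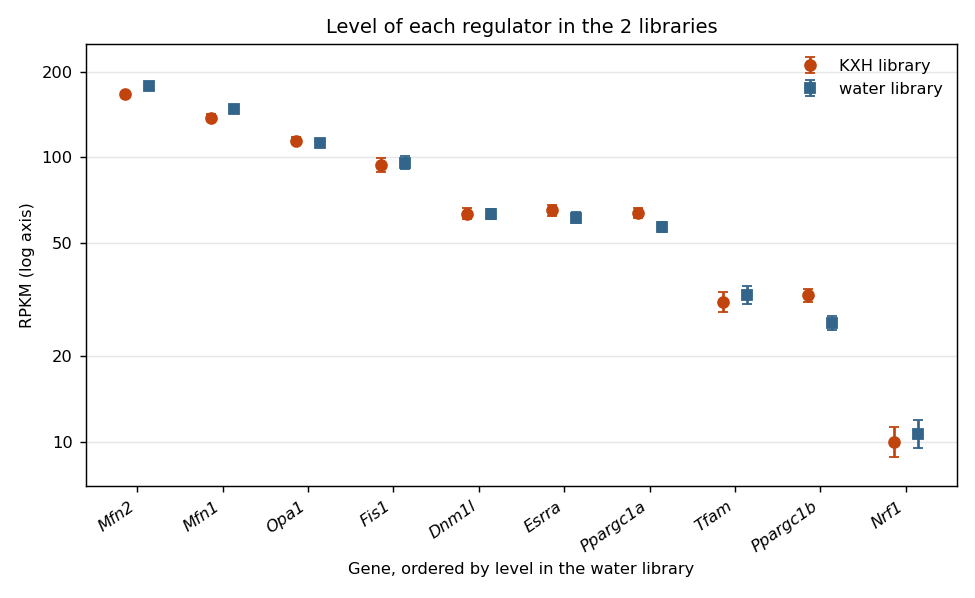
Level of each of the 10 genes in RPKM on a log axis, ordered by level in the water library, with the KXH library as circles and the water library as squares (1 library each) and exact 95% Poisson intervals for counting error. Ppargc1b (32.8 against 26.2 RPKM) and Ppargc1a (63.6 against 56.9 RPKM) lie higher in the KXH library, and Mfn2 (166 against 178 RPKM) and Mfn1 (138 against 148 RPKM) lie lower.

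The comparison of KXH with water found small differences with no common direction. Of the 10 members, 5 were higher and 5 lower in the KXH library, against 45.0% higher and 55.0% lower over all genes tested. The ratios of the members ran from 0.933 for Mfn1 to 1.25 for Ppargc1b. The summed level of all 10 was 779 RPKM with KXH and 785 RPKM with water. The median of the log2 ratios of KXH to water, with 1 RPKM added to each value, was -0.01 over the members and -0.02 over all 10467 genes tested. Ppargc1b was the only member at least 1.2-fold higher, a size reached by 7.5% of all genes tested and by 2.12% of the 4619 genes with at least 1000 reads over both libraries, the class to which 9 of the members belong. No member was at least 1.2-fold lower, against 12.1% of all genes and 3.51% of those with at least 1000 reads. The counting interval lay above 1 for 2 members, Ppargc1a and Ppargc1b, against 11.2% of all genes and 15.4% of genes with at least 1000 reads. It lay below 1 for 2 members, Mfn1 and Mfn2, against 16.3% and 21.3%. With 10 genes, these counts lie near the shares found over all genes.

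**Figure D2:**
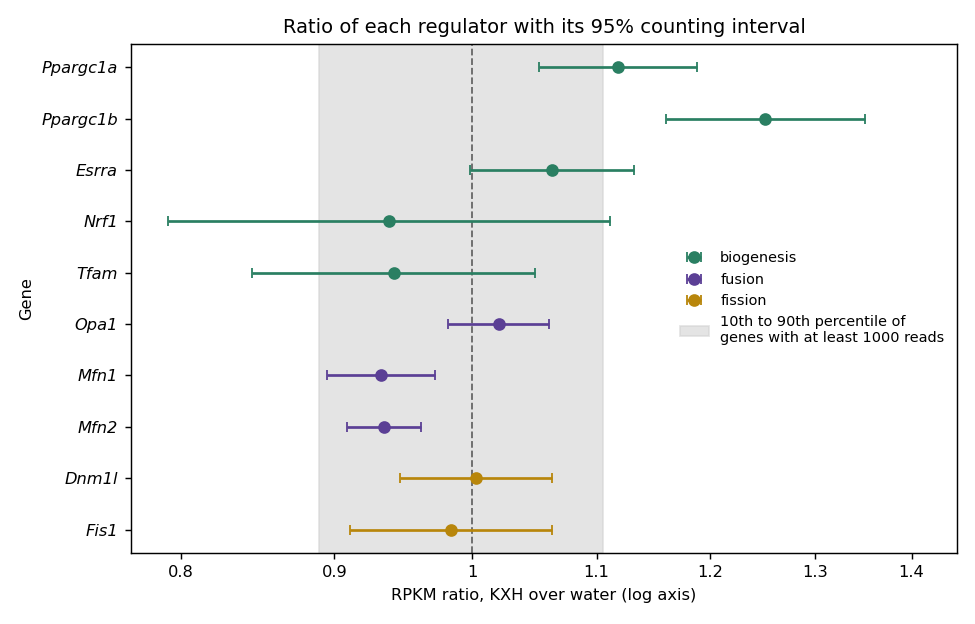
RPKM ratio of KXH over water for each of the 10 genes on a log axis, with 95% exact intervals for counting error and colours for biogenesis, fusion and fission genes. The grey band spans the 10th to 90th percentile of genes with at least 1000 reads (0.889 to 1.11), and the points of Ppargc1b (1.25) and Ppargc1a (1.12) lie to its right.

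Among the biogenesis genes, both PGC-1 coactivators were higher in the KXH library. Ppargc1b was represented by 1451 reads with KXH and 1245 with water, a 1.25-fold higher level (1.16 to 1.35). Of all genes tested, 5.25% had a higher ratio. Ppargc1a had 2182 reads with KXH and 2096 with water, a 1.12-fold higher level (1.05 to 1.19), and 15.8% of all genes tested had a higher ratio. The ratios of both coactivators lay above 1.11, the 90th percentile of genes with at least 1000 reads, which scatter less. Esrra, the receptor through which both act, had 1979 and 1999 reads in KXH and water, which gave a ratio of 1.06, with counting limits of 0.999 to 1.13. Under trimmed-mean scaling, with the median ratio set to 0 or without the 50 most abundant genes, its ratio was 1.07 to 1.08 and the interval lay above 1. The interval included 1 with the trend on gene length removed (1.06, 0.996 to 1.129) and scaled to cardiomyocyte markers (1.03, 0.967 to 1.096). In GRCr8 the span of Esrra overlaps that of the methyltransferase partner gene Trmt112, and the use of strand in counting is not given in the sources used here, so reads of the overlap cannot be assigned. Trmt112 itself was at 37.7 RPKM with KXH and 34.0 with water. The span of Ppargc1a likewise overlaps the ribosomal protein pseudogene Rpl36-ps6, and that of Ppargc1b overlaps the microRNA genes Mir378 and Mir3557.

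Nrf1 and Tfam, the factors further along the same pathway, had ratios below 1 with intervals that include 1. Nrf1 had 263 reads with KXH and 301 with water, a ratio of 0.938 (0.792 to 1.11), and Tfam had 634 and 723 reads, a ratio of 0.942 (0.845 to 1.05). At this depth a difference of this size could not be resolved for either gene, and the interval of Nrf1 is the widest among the members. Summed over the 5 biogenesis genes, the level was 203 RPKM with KXH and 188 RPKM with water.

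Both mitofusins were slightly lower in the KXH library, and Opa1 was not. Mfn2, which also tethers mitochondria to the sarcoplasmic reticulum, had 9051 reads with KXH and 10400 with water and was 1.07-fold lower (1.04 to 1.1005). Mfn1 had 4299 and 4951 reads in KXH and water and was 1.07-fold lower as well (1.03 to 1.12). Differences of this size were common, since 31.7% of all genes tested had a ratio below that of Mfn1 and 32.3% one below that of Mfn2. Genes with few reads scatter more, but both ratios also lay above 0.889, the 10th percentile of genes with at least 1000 reads. Opa1, which fuses inner membranes and shapes cristae, had 5052 reads with KXH and 5316 with water, a ratio of 1.02 (0.982 to 1.06). The 3 fusion genes together were at 418 RPKM with KXH and 438 RPKM with water.

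The fission genes were the closest to equal of the 3 groups. Dnm1l had 2221 reads with KXH and 2379 with water, a ratio of 1.00 (0.946 to 1.06). Fis1 had 1255 and 1370 reads in KXH and water, a ratio of 0.984 (0.911 to 1.06). These intervals leave room for a level 1.06 times higher for either gene, and 1.06 times lower for Dnm1l or 1.098 times lower for Fis1. The reads covered nearly the whole listed length of every member, from 96.3% for Mfn1 to 99.96% for Ppargc1a with KXH and from 96.6% for Mfn1 to 99.97% for Opa1 with water, by the deposited coverage.

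**Figure D3:**
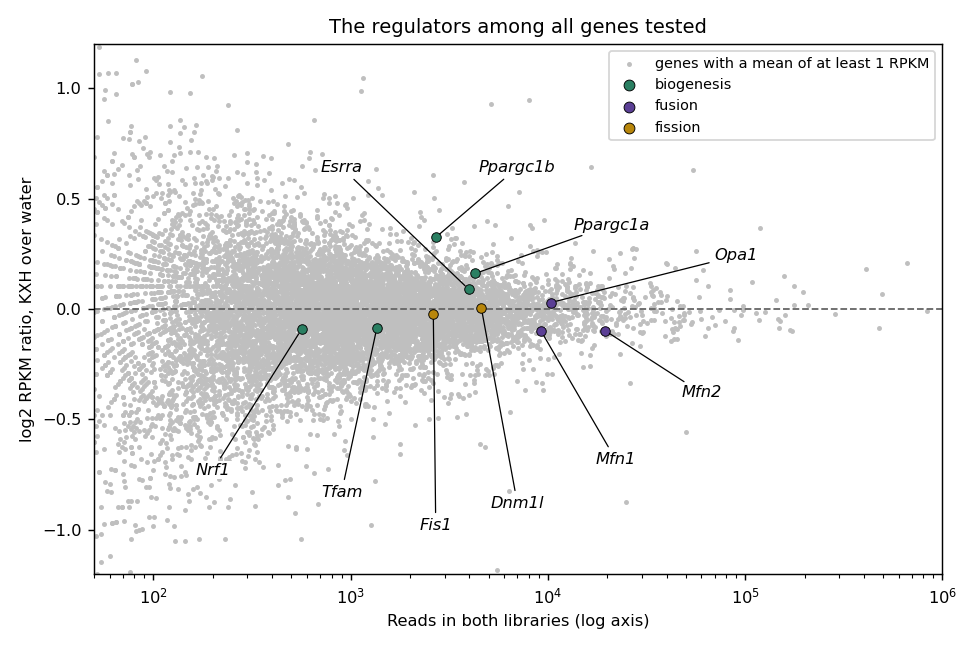
Log2 RPKM ratio of KXH over water against reads in both libraries (log axis), with the 10 genes in colour among 10250 grey and coloured points. A further 216 genes lie outside the axes and 1 gene had no reads in 1 library. Ppargc1b lies at a log2 ratio of 0.32 and Ppargc1a at 0.16, and the other 8 genes lie between -0.10 and 0.09.

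Ratios between pairs of members were compared next, because the scaling of a library cancels when 2 genes of the same library are divided. Each interval below is exact and covers counting error only. Ppargc1b reached 0.515 of the RPKM of Ppargc1a with KXH and 0.460 with water, which is 1.12 times as high (1.02 to 1.23). Ppargc1b over Tfam, a pair added after the values were seen, was 1.06 with KXH and 0.795 with water. It sets the highest member ratio against one of the lowest, so these values are a description only. Mfn2 over Opa1 was 1.46 with KXH and 1.59 with water, a ratio of ratios of 0.916 (0.873 to 0.961).

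The other 5 pairs had intervals that include 1. Mfn2 over Mfn1 was 1.21 in KXH and 1.21 in water, with a ratio of ratios of 1.00 (0.953 to 1.05). Tfam over Nrf1 was 3.10 in KXH and 3.09 in water (ratio of ratios 1.00, 0.820 to 1.23). Fis1 over Dnm1l (0.981, 0.890 to 1.08) and Esrra over Ppargc1a (0.951, 0.871 to 1.04) were the next of these. Summed reads of the fission genes over those of the fusion genes gave 0.189 with KXH and 0.181 with water. Their ratio was 1.04 (0.990 to 1.095), so no shift between fission and fusion transcripts was detectable at this depth.

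The partners and targets of these genes were examined as lists with 140 names in all, of which 127 passed the filter. In the KXH library 63 of them were higher and 64 lower, against 45.0% higher and 55.0% lower over all genes. Their median log2 ratio was -0.001 against -0.02 over all genes. At least 1.2-fold higher were 4 (3.15%), against 7.5% of all genes and 2.12% of those with at least 1000 reads, and at least 1.2-fold lower were 5 (3.94%), against 12.1% and 3.51%. Counting intervals lay above 1 for 23 (18.1%), against 11.2% of all genes and 15.4% of those with at least 1000 reads, and below 1 for 17 (13.4%), against 16.3% and 21.3%. This balance moved with the processing, since 31 lay above and 14 below under trimmed-mean scaling, and 19 above and 23 below with the trend on gene length removed. The listed genes had a median of 3407 reads, against 835 over all genes tested, and intervals narrow with reads.

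Of 20 measured cofactors and upstream factors of biogenesis, 9 were higher and 11 lower, and none was past 1.2-fold in either direction. Over all genes 7.5% were at least 1.2-fold higher and 12.1% lower, and with at least 1000 reads 2.12% and 3.51%. The third member of the coactivator family, Pprc1, had 685 reads with KXH and 659 with water and was 1.12-fold higher (1.0017 to 1.24). Pprc1 and Ppara were the only genes of this list with an interval above 1 (10%), against 11.2% of all genes and 15.4% of those with at least 1000 reads. For Pprc1 the lower bound lay just past 1. Scaling to cardiomyocyte markers, which shifts every log2 ratio by -0.047, takes that bound below 1. The fatty acid receptor Ppara had a ratio of 1.08 (1.01 to 1.15). Esrrg, a relative of Esrra, had one of 1.08 (0.992 to 1.17), and Gabpb1, a subunit of the GABP factor, one of 1.12 (0.889 to 1.40). The muscle transcription factor Mef2a was the lowest and the only gene of this list with an interval below 1, at 51.5 RPKM with KXH and 56.3 with water (ratio 0.915, 0.865 to 0.967). The thyroid hormone receptor Thra (0.939, 0.871 to 1.01) and the corepressor Nrip1 (0.937, 0.863 to 1.02) had intervals that include 1.

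Genes that copy and transcribe mitochondrial DNA, the process in which Tfam takes part, showed the widest spread of these lists, with 10 of 18 higher and 8 lower. The single-stranded DNA binding protein Ssbp1 was at 44.0 RPKM with KXH and 33.8 with water, 1.30-fold higher (1.09 to 1.55). Slirp, an RNA binding protein that protects mitochondrial mRNAs, was 1.22-fold higher (1.06 to 1.39). The elongation factor Tefm had a ratio of 1.14 (0.998 to 1.31). At the other end, the mitochondrial topoisomerase Top1mt had 65 reads with KXH and 105 with water and was 1.504-fold lower (1.09 to 2.08). The nuclease Mgme1 was 1.27-fold lower with an interval that includes 1 (0.946 to 1.70), and the methyltransferase Tfb1m had a ratio of 0.848 (0.654 to 1.0985). The unfoldase subunit Clpx was the other gene with an interval below 1, with a ratio of 0.941 (0.892 to 0.993). Intervals lay above 1 for 2 of the 18 genes and below 1 for 2 (11.1% each), against 11.2% and 16.3% of all genes. The genes of this list had few reads, with a median of 734.5.

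Among 18 partners of the fusion machinery and proteases that process Opa1, 9 were higher and 9 lower. Opa3, a mitochondrial protein linked to optic atrophy in humans, was at 48.8 RPKM with KXH and 40.6 with water, 1.201-fold higher (1.11 to 1.30). Prohibitin (Phb), which stabilises Opa1, was at 200 RPKM with KXH and 213 with water, 1.07-fold lower (1.03 to 1.11). The proteases Yme1l1 (ratio 1.16, 0.890 to 1.51) and Afg3l2 (0.972, 0.926 to 1.02) had intervals that include 1, as did the scaffold Stoml2 (1.08, 0.996 to 1.17) and the outer membrane protein Mtch2 (0.970, 0.924 to 1.02).

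Of 16 measured receptors and partners of fission, 8 were higher and 8 lower, and 4 intervals (25%) lay on each side of 1. Over all genes these shares were 11.2% above and 16.3% below, and 15.4% and 21.3% with at least 1000 reads. Mff, a receptor that recruits Drp1 to mitochondria, was at 28.1 RPKM with KXH and 24.6 with water, 1.14-fold higher (1.03 to 1.27). The other genes above 1 were Dnm1, a dynamin best known from neurons (1.23-fold, 1.04 to 1.45), the phosphatase Pgam5 (1.16-fold, 1.01 to 1.32) and the kinase anchor Akap1 (1.08-fold, 1.04 to 1.12). Lower were the catalytic subunits of calcineurin, the phosphatase that activates Drp1, with Ppp3cb 1.12-fold lower (1.04 to 1.197) and Ppp3ca 1.09-fold lower (1.01 to 1.17). The regulator Mtfr1l was 1.07-fold lower (1.02 to 1.12), and so was the membrane-bending protein Sh3glb1 (1.03 to 1.11). Bnip1 (ratio 1.15, 0.992 to 1.34) and Mtfr1 (0.930, 0.785 to 1.1025) had intervals that include 1. Mtfr2, with 29 reads with KXH and 41 with water, was past 1.2-fold lower with an interval of 0.455 to 1.25.

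Mitophagy genes, which remove damaged mitochondria, were as evenly divided, with 10 of 20 higher, 10 lower and none past 1.2-fold. That size was reached by 7.5% (higher) and 12.1% (lower) of all genes, and by 2.12% and 3.51% of those with at least 1000 reads. The receptor Optn was 1.06-fold higher (1.02 to 1.11) and Nbr1 1.05-fold higher, with a lower bound just past 1 (1.0003 to 1.1005). Ambra1, an adaptor of autophagy, had a ratio of 0.909 (0.840 to 0.984). Intervals included 1 for Bcl2l13 (ratio 1.12, 0.988 to 1.27), Fundc2 (1.06, 0.957 to 1.17), the deubiquitinase Usp30 (0.880, 0.753 to 1.03) and the ubiquitin ligase parkin, listed as Park2 (0.929, 0.751 to 1.15).

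Nuclear genes known as targets of the coactivators were measured best, with a median of 26992 reads, and 17 of 36 were higher and 19 lower. Counting intervals lay above 1 for 12 (33.3%), against 11.2% of all genes and 15.4% of those with at least 1000 reads, and below 1 for 8 (22.2%), against 16.3% and 21.3%. All genes tested had a median of 835 reads, and intervals narrow with reads, so these shares are not matched for depth. With the length trend removed the order turned, with 6 above and 14 below. The summed level was 33055 RPKM with KXH and 32994 RPKM with water. The largest differences were lower ones. Ucp3, an uncoupling protein of muscle, was at 8.32 RPKM with KXH and 11.8 with water, 1.41-fold lower (1.21 to 1.65). Pdk4, the kinase that holds back pyruvate dehydrogenase, was at 129 RPKM with KXH and 179 with water, 1.38-fold lower (1.32 to 1.45). Mitochondrial creatine kinase Ckmt2 was 1.102-fold lower (1.09 to 1.12). Ucp2 was the highest at 1.18-fold (1.12 to 1.25), followed by the fatty acid binding protein Fabp3 (1.09-fold, 1.08 to 1.11) and the complex I subunit Ndufs3 (1.09-fold, 1.04 to 1.14).

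**Figure D4:**
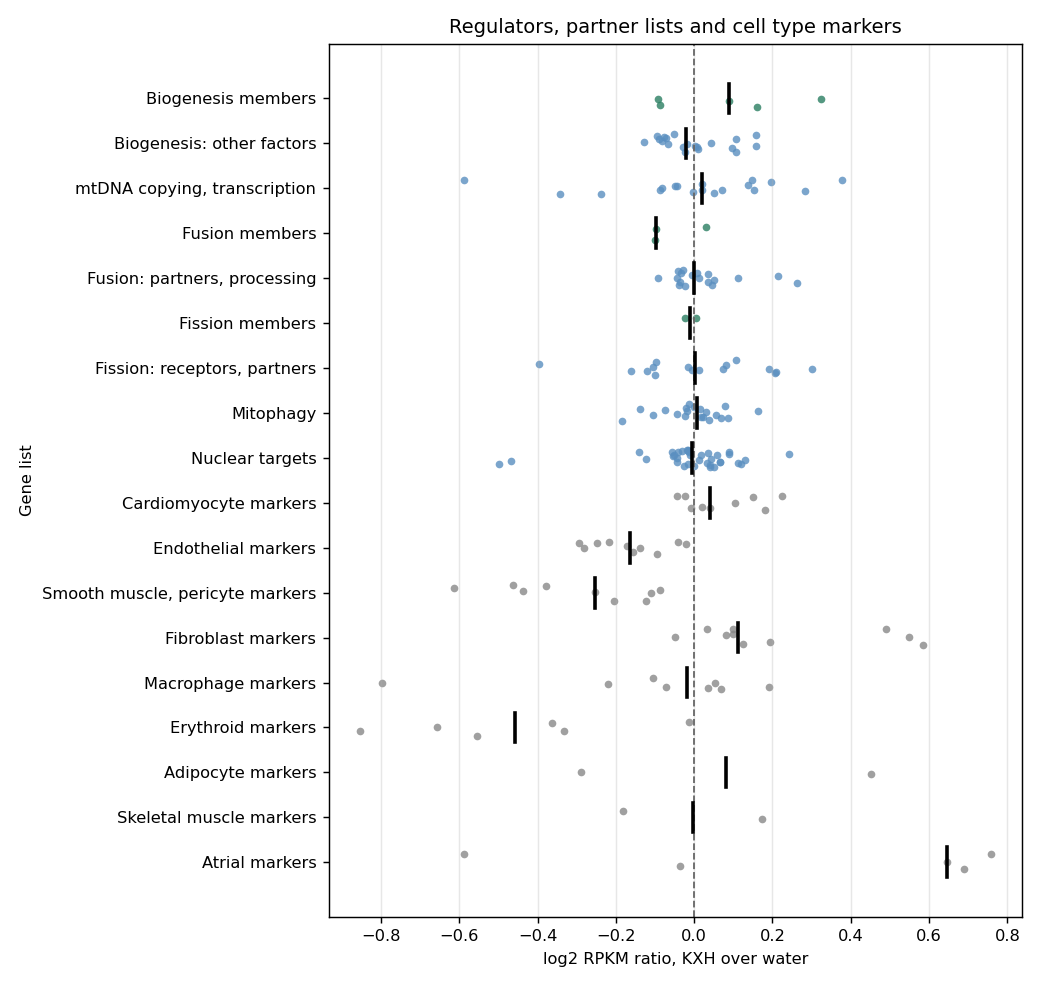
Log2 RPKM ratio of KXH over water for every gene past the filter, by list, with a black bar at the list's median, regulators in green, partner and target lists in blue and cell type markers in grey. The medians of the partner and target lists lie between -0.02 and 0.02, while erythroid markers (-0.46), smooth muscle and pericyte markers (-0.25) and endothelial markers (-0.16) lie lower, and atrial markers (0.64) and fibroblast markers (0.11) higher.

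Markers of the cell types in the tissue differed between the libraries beside these genes. Over all genes tested 45.0% were higher and 55.0% lower with KXH. In bulk tissue, fewer cells of a type and less RNA per cell cannot be told apart. Cardiomyocyte markers were abundant, with a summed level of 38680 RPKM with KXH and 36231 with water, and 6 of 9 were higher. All 10 endothelial markers were lower, with a sum of 542 RPKM in KXH against 609 in water, and so were all 9 measured smooth muscle and pericyte markers (424 against 486 RPKM). Of the 10 fibroblast markers 9 were higher (1036 against 926 RPKM), while macrophage markers were divided, with 4 of 8 higher (132 against 133 RPKM). Among the macrophage markers, C1qa had an interval above 1 (ratio 1.14, 1.02 to 1.28) and Cd68 one below 1 (0.575, 0.440 to 0.748). The 6 measured erythroid markers were lower (2275 against 3343 RPKM), with most of both sums from Hbb. The interval lay below 1 for 3 of them (50%), against 16.3% of all genes. Brown fat expresses the PGC-1 coactivators strongly. Of 7 adipocyte markers 2 passed the filter, Cfd and Cidea, and they differed in opposite directions, with Cfd at 13.9 RPKM with KXH and 10.1 with water (ratio 1.37, 1.08 to 1.74) and Cidea at 38.8 with KXH and 47.4 with water (0.818, 0.721 to 0.928). Ucp1, which defines brown fat, had 1 read with KXH and 0 with water and Adipoq and Retn were listed in neither library. Of 8 skeletal muscle markers 2 passed the filter, Mybpc2 with 145 reads with KXH and 138 with water (ratio 1.13, 0.888 to 1.44) and Tnnt3 with 23 and 28 reads (0.882, 0.485 to 1.59). Below the filter, Mybpc1 had 13 reads with KXH and 4 with water, Actn3 had 2 and 6, and the myosins Myh1 and Myh2, which define fast skeletal fibres, had 1 read each with KXH and 2 each with water. Atrial markers differed most among these lists, with a summed level of 880 RPKM with KXH and 566 with water, most of both from Nppa. Of the 5 that passed the filter 3 were higher, each with an interval above 1: the atrial peptide gene Nppa, which stressed ventricle also expresses, at 854.5 RPKM with KXH and 547 with water (ratio 1.56, 1.52 to 1.61), Myl4 (1.69, 1.16 to 2.49) and Sln (1.61, 1.01 to 2.60). Gja5 (0.975, 0.813 to 1.17) and Myl7, with 13 reads with KXH and 21 with water (0.665, 0.306 to 1.39), had intervals that include 1. The remaining atrial marker, Bmp10, had 2 reads with KXH and 7 with water and did not pass the filter. With all ratios scaled to the reads of the cardiomyocyte markers, Ppargc1b was 1.21-fold and Ppargc1a 1.08-fold higher, each with an interval above 1, and Mfn1 (ratio 0.903) and Mfn2 (0.905) had intervals below 1, while Opa1 (0.988) and Dnm1l (0.971) passed to the other side of 1 with intervals that include it. The part of the other cell types, and of atrial tissue, in these ratios was not tested.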

How the data were processed

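Per the labels' protocols, RNA of frozen myocardium was extracted with Trizol and sequenced from Illumina TruSeq RNA libraries. Per the file headers, the authors deposited a count of unique reads, a length, a coverage and an RPKM value per gene. The authors' RPKM is the read count divided by the length in kilobases and by the table's own total in units of 1000000 reads, which was checked to a relative difference of 1e-09. The submitters' processing notes name Bowtie 0.12.2 and the rat assembly rn6 without a role. Which annotation and counter were used, and whether strand was, is not given in the sources used here, and reads shared by near-identical or overlapping genes cannot be divided.

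The 10 genes and all lists were chosen with earlier results of these data known. RPKM ratios of KXH over water have exact Clopper-Pearson 95% intervals on the KXH share of a gene's reads, and list medians are of log2 ratios with 1 RPKM added. With 1 library per group, the intervals cover counting error only. Reads carry no molecular identifiers, so copies of 1 molecule cannot be told from separate molecules, and the intervals may be too narrow. Pairs of genes were compared by the odds ratio of their reads with an exact conditional interval. Named per list are the 3 highest and 3 lowest ratios among genes with at least 100 reads, and those past 1.2-fold. Ppara, Clpx, Mff, Akap1, Mtfr1l, Sh3glb1, Nbr1, Mtfr2 and Trmt112 were named after their values were seen, and the class of genes with at least 1000 reads and the cardiomyocyte scaling were added then. Alternatives were other scalings, pseudocounts, filters and thresholds, and removal of a quadratic trend on log2 length. Steps were tested on simulated data. Promoters are from RefSeq (GRCr8). Tables of long non-coding RNAs were not used. The software was Python 3.11.15 with scipy 1.17.1, numpy 2.4.6 and pandas 2.3.3, and figures were drawn in matplotlib 3.10.9.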

Additional observations from a re-analysis of the deposited data

How the results depend on the processing

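Each member kept its direction under trimmed-mean scaling, a median ratio set to 0, totals without the 50 most abundant genes and removal of the length trend. Scaled to cardiomyocyte markers, an alternative chosen after seeing the data, Opa1 and Dnm1l passed to ratios of 0.988 and 0.971, with intervals that include 1 as before, and Mfn2 moved to 0.905. The interval of Esrra lay above 1 under trimmed-mean scaling (ratio 1.08), with the median set to 0 (1.08) and without the 50 most abundant genes (1.07). It included 1 with the length trend removed (1.06) and scaled to cardiomyocyte markers (1.03). No other member's interval changed sides under these 5 alternatives. Trimmed-mean scaling adds 0.02 to every log2 ratio.

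At 1.1-fold, 2 members were higher, and at 1.5-fold 0. Of the 127 partner and target genes, 15 were higher and 10 lower at 1.1-fold, and 0 and 1 at 1.5-fold. Their counting intervals lay above 1 for 31 and below 1 for 14 under trimmed-mean scaling or with the median set to 0, 28 and 15 without the 50 most abundant genes, and 19 and 23 with the length trend removed, against 23 and 17 as reported. For the nuclear targets the last of these gave 6 and 14, against 12 and 8. Of all the partner and target genes, 2 were at least 1.2-fold higher with the length trend removed, against 4 as reported. With a filter at 5 RPKM 2 of them were at least 1.2-fold lower, against 5 as reported, since fewer genes were tested. The share of all genes at least 1.2-fold higher was 13.7% with no filter, 4.995% at 5 RPKM and 2.12% with at least 1000 reads, and that of genes lower 19.9%, 6.69% and 3.51%, as genes with few reads scatter more. All 8 ratios between pairs stayed inside their intervals with the length trend removed. No paired analysis was possible because there was 1 library per group, and none could be left out.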
